A study of Mus musculus with 6 samples.

Results

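The guanylate-binding proteins are a family of large GTPases, and the 10 mouse genes *Gbp2* to *Gbp11* were followed here in sciatic nerves of newborn mice. The members were taken by their gene symbols, and all 10 were found among the 59485 genes of the expression table. All 10 also passed the filter on low values, which kept the 25802 genes with a mean of at least 10 in at least 1 genotype.

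Sciatic nerves were collected at P4 (postnatal day 4), and each of the 6 animals gave 1 library. The 3 mutants carried Ht-PA-Cre, 2 floxed *Adar1* alleles and the R26R reporter. The 3 controls are labelled wild-type, and the study's methods describe them as animals with the R26R reporter and 1 or 2 floxed *Adar1* alleles, without Cre. The floxed gene is *Adar*, which encodes the RNA editing enzyme ADAR1. The Cre is driven by the human tissue plasminogen promoter, which acts in neural crest cells, so only their derivatives, such as Schwann cells, lose the floxed alleles. The endothelial cells, macrophages and blood cells of the nerve keep theirs, and each value is a sum over all these cells. In such bulk samples, a change in the number of cells of a type and a change in RNA per cell cannot be told apart.

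Between 50938349 and 78250094 reads per library lay on genes. Of the gene counts from 1 to 20, only 23.8 to 25.1% per library were odd, so reads often came in twos. A value is the number of reads divided by a size factor of its library and is called a normalised read count, with 1 read worth between 0.727 and 1.27. *Adar* itself had 1602, 2066 and 1133 normalised reads in the controls against 11768, 9311 and 9773 in the mutants. This rise (log2 fold change 2.72, standard error 0.20, adjusted p = 4.1e-05 by limma) goes against the deletion in the labels. Since a gene has only 1 value, reads from the deleted segment cannot be told from the others. Libraries are therefore named by their labels, as control-labelled or mutant-labelled, and every direction rests on these labels. Where replicates are numbered, "control" and "mutant" stand for these labels.

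Guanylate-binding proteins are among the most strongly interferon-induced proteins of mouse cells. They belong to the dynamin superfamily, assemble on bacteria and on the vacuoles that hold intracellular parasites, and help to expose these microbes to autophagy proteins and inflammasomes. Interferon-gamma acts on their promoters through GAS sites and through IRF1. Type I interferon acts through a complex that includes STAT2 and IRF9 and binds the interferon-stimulated response element (ISRE). In the mouse, the genes lie in a cluster on chromosome 3 and another on chromosome 5.

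The promoters of the members were searched for the letters of these sites, and the stretches with a match are shown so that the letters can be read beside the expression values. They come from the promoter windows of RefSeq (build GRCm38.p6), 250 bases before to 50 bases after a gene's start, and 4 of the 10 members had an entry: *Gbp2*, *Gbp3*, *Gbp5* and *Gbp7*. The motif searched was GAAANNGAAA, which reads TTTCNNTTTC on the other strand. Capitals mark the match, all lines are the plus strand of chromosome 3, and each stretch is 30 bases long.
Gbp2: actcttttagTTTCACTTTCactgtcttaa
Gbp3: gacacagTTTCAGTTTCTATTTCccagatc
Gbp5: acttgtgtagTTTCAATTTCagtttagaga
Gbp7: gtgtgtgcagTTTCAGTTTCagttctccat
The match begins 59 bases before the start of *Gbp2* (chr3:142620594-142620623), 45 before *Gbp3* (chr3:142559992-142560021), 165 before *Gbp5* (chr3:142496759-142496788) and 53 before *Gbp7* (chr3:142530273-142530302). In *Gbp3* a pair of matches overlap, and the capitals cover both. The RefSeq start of *Gbp5* lies inside the gene as the expression table draws it. All 4 genes had a window with the ISRE core (a further window of *Gbp3*, at another start, has none), which 3.44% of the 32851 promoter windows hold.

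The GAS core, TTCNNNGAA on either strand, was found in 2 of the 4 genes and in 8.30% of all windows. Matches are shown for *Gbp5* and *Gbp7*, the members with it, again in capitals.
Gbp5, 52 bases before the start: tggccgttatTTCTCAGAAccaagcacaga
Gbp7, 106 bases before the start: tccgttttctTTCCAGGAAaagcagaagct
Gbp7, 87 bases before the start: aagcagaagcTTCTCAGAAagtcagcacaa
Both motifs stand together in the windows of *Gbp5* and *Gbp7*, and in 0.454% of all windows. A match describes the letters of the window and not the binding of a factor.

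All 10 genes rose in the mutant-labelled nerves. Calls follow the study's limits, an unadjusted p at or under 0.05 together with a 2-fold change or more, here with limma's test on log2(value + 1). By this rule 13.9% of the tested genes rose and 10.4% fell (24.2% in either direction). The adjusted p of all 10 members was at most 0.00796, and 11.5% of the tested genes rose with an adjusted p no higher than 0.05. In each of the 10, all mutant-labelled values lay above all control-labelled values, as they did in 25.9% of tested genes. The lowest mutant-labelled value exceeded the highest control-labelled value by 3.69-fold (*Gbp8*) to 13.6-fold (*Gbp5*). The log2 fold changes lay between 3.57 and 7.51 with a median of 5.13, against a median of 0.03 over all tested genes. By limma's log2 fold change all 10 rose at least 10-fold, as did 4.18% of tested genes, although the ratio of the group means of *Gbp8* was 8.72. Reads on the 10 genes made up 0.00446, 0.0225 and 0.00201% of the reads in control replicates 1 to 3. In mutant replicates 1 to 3 they made up 0.268, 0.198 and 0.263%.

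**Figure D1:**
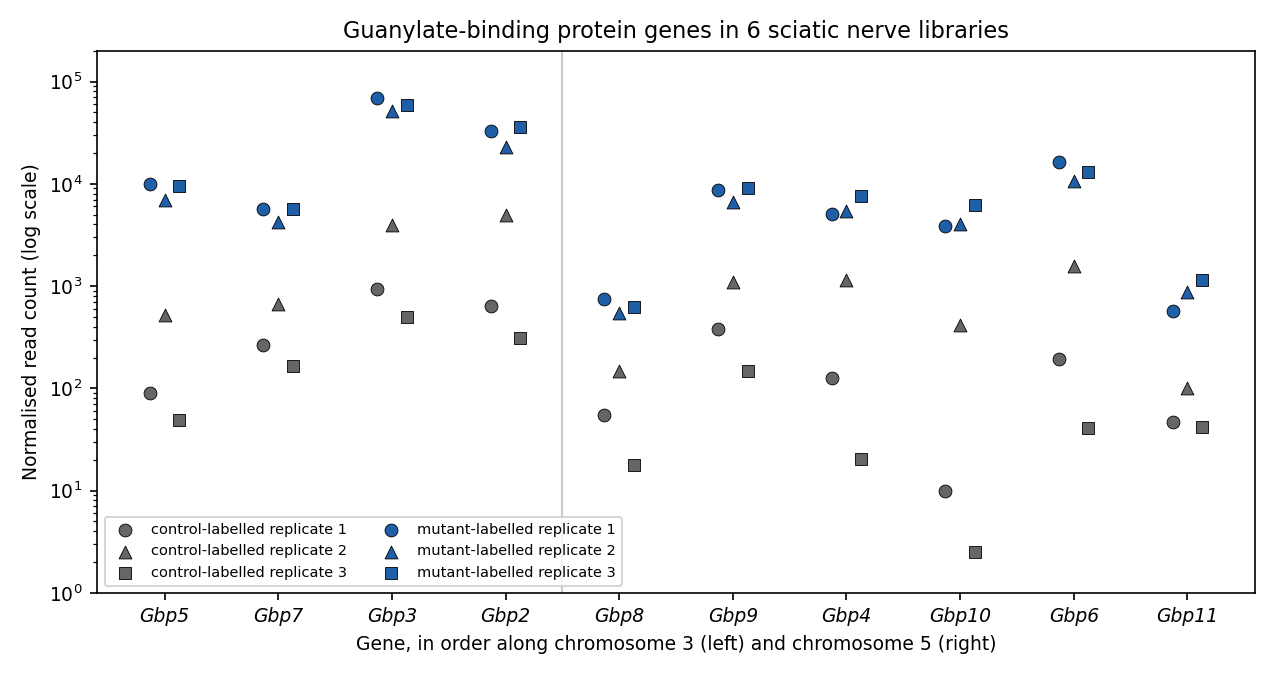
Normalised read count (log axis) of the 10 genes, ordered along chromosome 3 and then chromosome 5, with 1 point per library; grey points are control-labelled, blue points mutant-labelled, and the shape gives the replicate. All blue points of a gene lie above its grey points, and control replicate 2 (grey triangle) is the highest control of every gene.

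Gene coordinates are those of the table, on mm10. Among the 4 members on chromosome 3, *Gbp2* (GSMG0025046, chr3:142620642-142638006, plus strand) encodes a protein that coats the vacuole of *Toxoplasma* and is anchored to membranes by a lipid at its CaaX end. It had 639.6, 4984 and 310.5 normalised reads in control replicates 1 to 3, against 33158, 22767 and 35754 for mutant replicates 1 to 3. Control replicate 2 stood far above the other controls, yet well below every mutant. The mean was 1978 ± 2609 (SD, n = 3) in the controls against 30559 ± 6872 in the mutants. The log2 fold change was 4.91 (standard error 0.84, adjusted p = 0.00263, Benjamini-Hochberg over all tested genes).

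*Gbp5* (GSMG0025042, chr3:142493977-142522344, plus strand), another member with a CaaX end, is known for promoting NLRP3 inflammasome assembly. It had 89.9, 516 and 49.4 normalised reads in the controls against 9887, 7007 and 9449 in the mutants. This is the widest gap of the family between the highest control and the lowest mutant. The means were 218 ± 258 and 8781 ± 1552 (SD, n = 3), a log2 fold change of 6.03 (standard error 0.71, limma adjusted p = 0.000393).

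*Gbp3* (GSMG0025045, chr3:142560044-142573213, plus strand) had 931.7, 3970 and 498 normalised reads in the controls against 68364, 51033 and 59559 in the mutants. Its mutant-labelled values were close together, with a coefficient of variation of 14.5%, while its controls spanned nearly an order of magnitude. The means were 1800 ± 1892 and 59652 ± 8666 (SD, n = 3), and the log2 fold change was 5.59 (standard error 0.62, limma adjusted p = 0.000288).

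*Gbp7* (GSMG0025044, chr3:142530336-142550151, plus strand), linked to NADPH oxidase assembly and autophagy in infected macrophages, had 268, 665 and 166 normalised reads in the controls against 5680.2, 4261 and 5632 in the mutants. It had the smallest log2 fold change of the chromosome 3 members, 4.05 (standard error 0.43, limma adjusted p = 0.000218). The means were 366 ± 264 and 5191 ± 806 (SD, n = 3). In the GENCODE annotation *Gbp7* overlaps the gene model *Gm43802* on the same strand, and 9.1% of the 130-base stretches (the read length) of its transcripts also occur there. Reads from these stretches could come from either.

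The 6 members on chromosome 5 all lie on the minus strand. *Gbp6* (GSMG0030840, chr5:105270704-105293699) had 195, 1566 and 40.6 normalised reads in the controls against 16457, 10547 and 13024 in the mutants. The means were 601 ± 839 and 13343 ± 2968 (SD, n = 3), giving a log2 fold change of 5.81 (standard error 1.06, limma adjusted p = 0.00355). The large standard error came with controls that were far apart, the highest 38.6 times the lowest.

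*Gbp10* (GSMG0030841, chr5:105215699-105239533) was almost silent in a pair of controls. It had 9.99, 412 and 2.53 normalised reads in the controls, which are 9, 436 and 2 reads, and 3897, 4004 and 6161 in the mutants. The means were 142 ± 234 and 4687 ± 1277 (SD, n = 3). Its log2 fold change of 7.51 was the highest of the family by limma and the least precise (standard error 1.45, limma adjusted p = 0.00465). edgeR gave 5.02 and DESeq2 5.05 on the reads, both still past the threshold, and the ratio of the group means was 33.1. By each of these 3 measures *Gbp5* rose more (5.32, 5.33 and 40.2). *Gbp6* and *Gbp10* are near-identical over long stretches. Of the 130-base stretches of their transcripts, 61.2% of those of *Gbp6* and 68.7% of those of *Gbp10* also occur in another gene, in each other or in *Gm43302*, which overlaps both. Their separate values are therefore uncertain.

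*Gbp4* (GSMG0030839, chr5:105115764-105139586) had 125, 1135 and 20.3 normalised reads in the controls against 5101, 5404 and 7664 in the mutants. Control replicate 2 was 56.0 times control replicate 3, and this gene had the largest adjusted p of the 10. The means were 427 ± 615 and 6057 ± 1401 (SD, n = 3), giving a log2 fold change of 5.36 (standard error 1.16, limma adjusted p = 0.00796).

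*Gbp9* (GSMG0030838, chr5:105076466-105110292) had 379, 1107 and 148 normalised reads in the controls against 8601, 6652 and 9132 in the mutants. The log2 fold change was 4.34 (standard error 0.59, limma adjusted p = 0.000816), from means of 545 ± 501 and 8128 ± 1306 (SD, n = 3). *Gbp4*, *Gbp8* and *Gbp9* overlap one another on the same strand in GENCODE, but at most 0.655% of the 130-base stretches of any of them occurred elsewhere.

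*Gbp8* (GSMG0030837, chr5:105014153-105053561) had 54.4, 149 and 17.7 normalised reads in the controls against 751, 551 and 628 in the mutants. It rose the least of the 10, by a log2 fold change of 3.57 (standard error 0.64, limma adjusted p = 0.00327), and 909 tested genes had a larger one. *Gbp11* (GSMG0030842, chr5:105323026-105346476) had 46.6, 101 and 41.8 normalised reads in the controls against 569.5, 879 and 1150.3 in the mutants. GENCODE types it as a polymorphic pseudogene. The ratio of its highest to its lowest control was the smallest of the family, and its log2 fold change of 3.81 had the smallest standard error (0.39, limma adjusted p = 0.000187). Its mutant-labelled values were the most spread, with a coefficient of variation of 33.5%.

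The order of the rises, from *Gbp10* over *Gbp5*, *Gbp6*, *Gbp3*, *Gbp4*, *Gbp2*, *Gbp9*, *Gbp7* and *Gbp11* to *Gbp8*, is that of limma's log2 fold changes, and the differences between members were not tested. The separate 95% confidence intervals of the 10 overlapped: the highest lower bound was 4.40 (*Gbp5*) and the lowest upper bound 4.71 (*Gbp11*). Leaving out a control moved the sizes but no call. Without control replicate 2 the log2 fold changes ran from 4.21 (*Gbp11*) to 9.52 (*Gbp10*), and the fold changes of all members but *Gbp7* and *Gbp11* grew by over 1.5-fold. Without control replicate 3 they ran from 2.81 (*Gbp8*) to 6.09 (*Gbp10*). *Gbp10* also moved without control replicate 1, to 6.91.

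**Figure D2:**
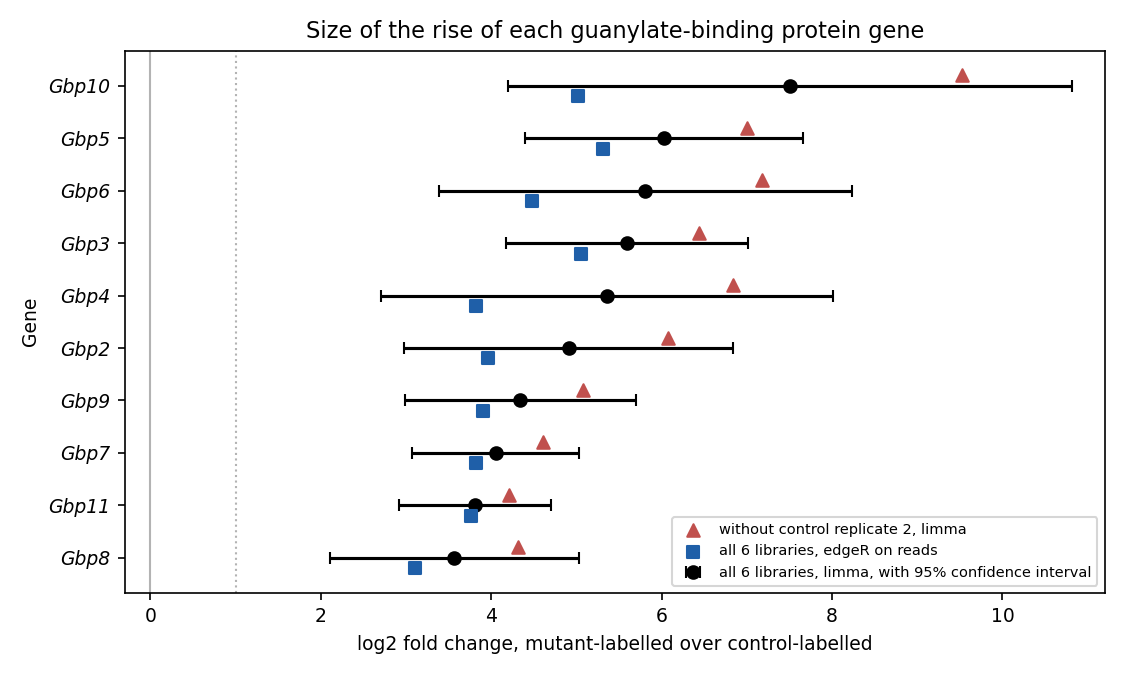
Log2 fold change of each gene, mutant-labelled over control-labelled, as black points with 95% confidence intervals from limma; red triangles leave out control replicate 2 and blue squares are edgeR values on the reads. The intervals overlap one another and all lie above the dotted line at 2-fold, the triangles lie to the right of the points, and the squares to their left.

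The controls were far from alike in this family. Control replicate 2 was the highest control and at least 2-fold above both others, with at least 10 normalised reads, in all 10 members, a pattern found in 3.45% of tested genes (4.23% for control replicate 1, 3.17% for control replicate 3). Control replicate 3 was the lowest control in all 10. Summed over the members, the controls had 2739, 14605 and 1295 normalised reads and the mutants 152467, 113103 and 148153. Control replicate 2 thus had 5.33 times the sum of control replicate 1 and 11.3 times that of control replicate 3. On chromosome 3 these ratios were 5.25 and 9.90, and on chromosome 5 they were 5.52 and 16.5.

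Measured from the mean of the other 2 controls to the mutant-labelled mean, control replicate 2 covered between 5.12% (*Gbp5*) and 18.6% (*Gbp8*) of the distance. The mutant-labelled mean was still 4.31-fold (*Gbp8*) to 17.0-fold (*Gbp5*) above this library. Of the 889 tested genes that were at least 2-fold above both other controls in control replicate 2, 25.2% rose in the mutants and 55 fell. Among the mutants, replicate 2 was the lowest in 7 members and replicate 1 in *Gbp4*, *Gbp10* and *Gbp11*. The highest mutant-labelled value was 1.33-fold (*Gbp7*) to 2.02-fold (*Gbp11*) above the lowest.

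**Figure D3:**
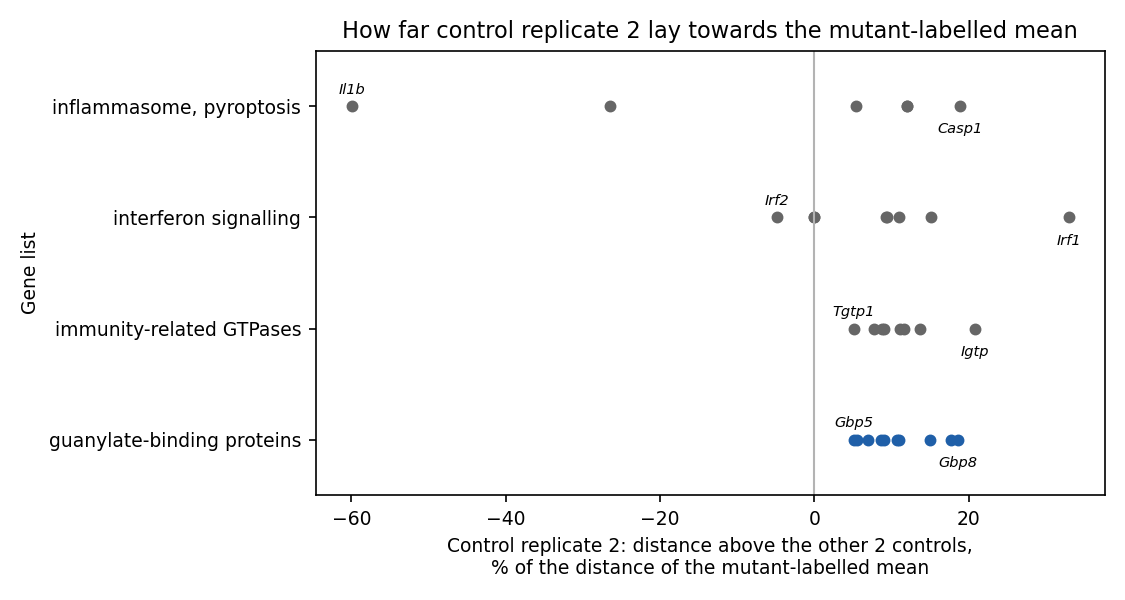
Distance of control replicate 2 above the mean of the other 2 controls, as % of the distance of the mutant-labelled mean, with 1 point per gene past the threshold in 4 gene lists; the lowest and highest gene of each list is named. The 10 guanylate-binding proteins lie between 5.12 and 18.6%, *Irf1* is at 33.0%, and *Ifnb1* and *Ifng*, without reads in any control, are at 0.

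The ratio between members within a library was looked at for 4 pairs. *Gbp5* had 0.336, 0.776 and 0.298 times the normalised reads of *Gbp7* in the controls against 1.74, 1.64 and 1.68 times in the mutants, with no overlap between the groups. For *Gbp10* over *Gbp6* the ratio was 0.0511, 0.263 and 0.0625 in the controls against 0.237, 0.380 and 0.473 in the mutants. Here control replicate 2 lay within the range of the mutants, and the values of both genes are uncertain as said. *Gbp4* over *Gbp9* overlapped between the groups, with 0.331, 1.03 and 0.137 in the controls against 0.593, 0.812 and 0.839 in the mutants. *Gbp2* over *Gbp3* went the other way, with 0.687, 1.26 and 0.623 in the controls against 0.485, 0.446 and 0.600 in the mutants. These ratios compare the change of one gene with that of another, not their amounts, since the values are not per length. No test was run on them.

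The 4 members on chromosome 3 span 144 kb and had log2 fold changes from 4.05 to 6.03, and the 6 members on chromosome 5 span 332 kb and had log2 fold changes from 3.57 to 7.51. Within 250 kb of the outermost members, 6 other genes with a symbol were tested on chromosome 3. *Gbp2b*, which lies between *Gbp3* and *Gbp2*, and *Pkn2* (log2 fold change 1.26) rose, and *Kyat3* fell by 1.19 on the log2 scale. *Pdlim5* (0.51), *Gtf2b* (0.14) and *9530052C20Rik* (0.92) did not pass the threshold. Of the 4 tested around the chromosome 5 cluster, *Lrrc8b* fell by 1.42 on the log2 scale, and *Lrrc8c* (0.70), *Abcg3* (0.42) and *Zfp951* (-0.35) did not pass.

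**Figure D4:**
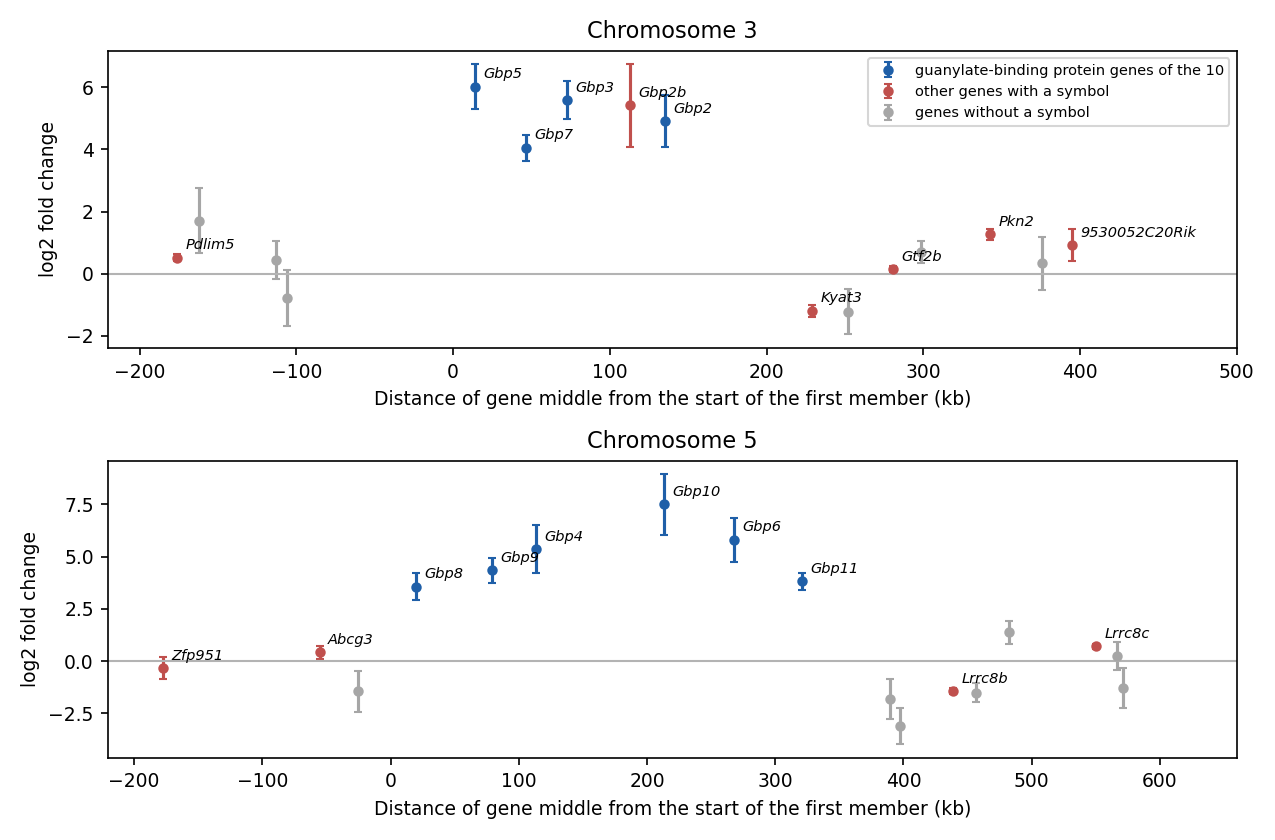
Log2 fold change (± standard error from limma) against the distance in kb of each tested gene's middle from the start of the first member on chromosomes 3 and 5; blue points are the 10 members, red points other genes with a symbol, grey points genes without one. Among the named genes, log2 fold changes above 2 are seen in the members and in *Gbp2b*.

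*Gbp2b* is the close relative of the members formerly called *Gbp1*. It had 14.2 normalised reads in control replicate 2 and none in the other controls. A count of 0 allows up to 3 reads if reads are independent, and more where they come in twos. The mutants had 72.7, 491 and 31.7, and the high value of mutant replicate 2 was not shared by any of the 10 members. Its log2 fold change was 5.42 (standard error 1.33, limma adjusted p = 0.0139). *Gvin1*, a very large interferon-inducible GTPase, rose by a log2 fold change of 4.46. The atlastins are distant relatives that shape the endoplasmic reticulum. *Atl1* fell by 1.31 on the log2 scale, and *Atl2* (0.83) and *Atl3* (0.59) did not pass the threshold.

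The immunity-related GTPases (IRGs) are smaller interferon-induced GTPases that load onto the same parasite vacuoles. Of the 9 tested, 8 rose and none fell, with a median log2 fold change of 5.32. *Tgtp2* (9.08), *Tgtp1* (7.14) and *Gm12250* (6.61) had the largest values, *Igtp* (4.62) was among the lowest, and *Irgq* (-0.77) did not pass. *Irgc1* had reads in mutant replicate 1 alone (1.45 normalised reads). The raised control replicate 2 was seen here too: it was at least 2-fold above both other controls in 8 of the 9 tested.

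The genes with a symbol whose 6 centred log2 values lay nearest to the median profile of the members were *Irgm1* (Euclidean distance 0.464), *Ifi47* (0.602), *Batf2* (0.671), *Irgm2* (0.703) and *Rtp4* (0.749). *Irgm1* had 793, 5188 and 466 normalised reads in the controls against 35994, 29068 and 37024 in the mutants, a log2 fold change of 4.77. Of the members, *Gbp2* lay nearest to that profile (0.458) and *Gbp10* farthest (3.90). These 6 points per gene include the difference between the groups, so a rise of like size by itself brings a gene nearer. The spread within the groups counts too: *Gbp4*, with a log2 fold change of 5.36, lay at 1.60.

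The signal that leads to the *Gbp* promoters was followed in 16 genes, of which 8 rose and none fell, with a median log2 fold change of 1.07. Among the ligands, *Ifnb1* had no reads in the controls against 466, 408 and 507 normalised reads in the mutants, 139-fold higher when each control is set to 3 reads. *Ifng* had none in the controls against only 7.27, 28.9 and 11.9 in the mutants, 4.82-fold higher by the same floor. Both would be lower bounds if reads were independent, and with reads often in twos they may be too high. Control replicate 2, with its raised *Gbp* genes, had reads for 1 of the 21 interferon genes of the table: *Ifnab*, named after its values were seen, had 8 reads there. Control replicate 3, the lowest control of every member, had 8 reads for *Ifnz*, 6 for *Ifna6* and 3 for *Ifna7*. Control replicate 1 had 4 for *Ifnz*. These genes too were named after their values were seen. A count of 0 in control replicate 2 allows up to 2.84 normalised reads if reads are independent, so a ligand below that level could have been missed there.

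*Ifnar1* (-0.38) and *Tyk2* (-0.57), a receptor chain and a kinase of the type I pathway, had the lowest log2 fold changes of the list and did not pass the threshold. *Irf1*, an interferon-induced factor known to act on *Gbp* promoters, rose too, although it is named here for its control values alone. It had 582, 2639 and 632 normalised reads in the controls against 7449, 5389 and 7458 in the mutants.

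Guanylate-binding proteins reach their targets with the help of the Atg8 conjugation proteins of autophagy. None of these 10 genes was called by limma, edgeR or DESeq2, although 1 was higher and 4 were lower at an unadjusted p at or under 0.05. The highest log2 fold changes were those of *Atg3* (0.32), *Atg5* (0.17) and *Atg12* (0.15), and the lowest those of *Map1lc3b* (-0.78) and *Gabarapl2* (-0.73). In 5 of the 10, the latter pair among them, all mutant-labelled values lay below all control-labelled ones, as in 23.3% of tested genes. In 1 of the 10 they all lay above, as in 25.9% of tested genes.

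The inflammasome and pyroptosis genes act downstream of the proteins. Of 9 tested, 6 rose and none fell, with a median log2 fold change of 1.43. *Casp4*, which encodes the LPS-sensing caspase-11, had 411, 819 and 526 normalised reads in the controls against 6521, 5804 and 8327 in the mutants, a log2 fold change of 3.60. *Casp1* rose by 2.72. *Il1b* (3.24) had few reads, its groups overlapped, and its limma adjusted p was 0.0954. *Aim2* (0.75) and *Nlrc4* (-0.35) did not pass.

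*Gbp2* and *Gbp5* need a lipid on their CaaX end to hold membranes. Of the 8 genes of this prenylation step, 3 fell and none rose by limma, with a median log2 fold change of -0.27. *Fdps*, the enzyme that makes farnesyl diphosphate, had 19533, 19847 and 23568 normalised reads in the controls against 2947, 3243 and 2534 in the mutants and fell by 2.85 on the log2 scale. *Fnta*, the alpha subunit shared by both prenyltransferases, fell by 2.41, and *Fntb*, the beta subunit of farnesyltransferase, fell by 1.09, both on the log2 scale. *Pggt1b* (0.996), the beta subunit of the other prenyltransferase, and *Ggps1* (0.67), which makes the longer lipid donor, had the highest log2 fold changes, followed by *Zmpste24* (0.06). Both *Pggt1b* and *Ggps1* had an unadjusted p under 0.05 but were under 2-fold by limma. *Pggt1b* lay at the limit, and edgeR and DESeq2, each with a log2 fold change of 1.02, called it as a rise.

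**Figure D5:**
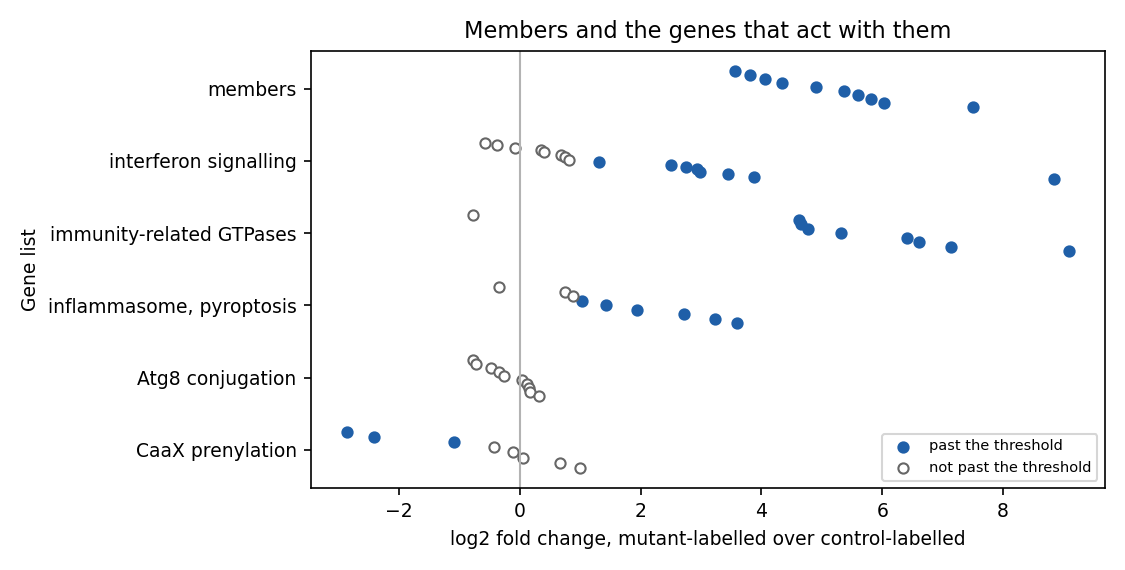
Log2 fold change, mutant-labelled over control-labelled, of the 10 members and of the tested genes in 5 lists that act with them, with 1 point per gene; filled points passed the threshold. All members lie between 3.57 and 7.51, the IRGs apart from *Irgq* lie in or above that range, no Atg8 conjugation gene is filled, and the filled prenylation genes lie below 0.

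Several cell types that can express guanylate-binding proteins were read from their markers beside the rise. Of 8 T and NK cell markers tested, 6 rose (*Cd4* with a limma adjusted p of 0.0542), and the summed level of the list was 109 to 217 normalised reads in the controls against 510 to 810 in the mutants. *Cd3d*, *Cd8a*, *Ncr1* and *Prf1* had no reads in any control. *Gzma* reached 6.18 on the log2 fold change scale. In control replicate 2 the list summed to 145, between the other controls, and *Cd4* made up 92.6 of it. *Cd3e* (25.5 against 8.88 and 5.07) and *Gzma* (7.56 against 0 and 2.53) were highest in this control, both by at least 2-fold over the other controls. *Klrb1c* (11.3 against 41.1 and 24.1) and *Cd3g* (7.56 against 13.3 and 7.60) were lowest in it. The part of T and NK cells in the rise of the mutants and in the values of control replicate 2 was not tested.

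Of 10 macrophage markers, *Aif1* rose (not called without control replicate 3 or mutant replicate 1) and *Csf1r*, *Cx3cr1* and *Mrc1* fell. At an unadjusted p at or under 0.05 by limma, 4 of the 10 were higher and 3 lower. The summed level overlapped between the groups (21304 to 26773 in the controls, 21471 to 24985 in the mutants). None of the 8 endothelial markers was called by limma, with 3 higher at an unadjusted p at or under 0.05, and their sums ranged from 16547 to 26053 and from 21823 to 33578. Of 8 Schwann cell markers, 5 fell and none rose. Of 4 neutrophil markers tested, *Csf3r* rose. Skeletal muscle markers rose in 5 of 6, with sums from 6110 to 32211 in the controls, lowest in control replicate 2, and from 40330 to 306302 in the mutants, highest in mutant replicate 3. *Twist2* rose and *Col1a1* fell among 7 fibroblast and perineurial markers, and none of 4 adipocyte markers was called by limma or had an unadjusted p at or under 0.05. The part of these cell types in the rise of the members was not tested.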

How the data were processed

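The authors mapped reads of poly-A libraries to mm10 with STAR 2.4.0, counted those on constitutive regions of FAST DB genes and divided them by DESeq2 size factors. The deposited values are such a signal per gene and library. Dividing by the value of 1 read gave whole numbers (tolerance 0.01) for 100% of values. edgeR 4.0.16 and DESeq2 1.42.0 were run on these whole reads. The main test was limma 3.58.1 (R 4.3.3) with eBayes trend on log2(value + 1), which understates changes of low genes. Adjusted p-values (Benjamini-Hochberg) cover all 25802 tested genes. All 3 fits were tested on simulated data.

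The members and gene lists were chosen with earlier results of these data known. Named were all members and, of each list, the 3 genes with the highest and the 2 with the lowest log2 fold change, genes below the filter, relatives, genes within 250 kb of a cluster, marker genes past the threshold, and the 5 genes nearest in profile. *Irf1*, *Fntb*, *Cd3e* and *Cd3g* were named after their values were seen. The floors of 3 reads cover counting error only and take each read as independent, which reads in twos and PCR reads are not. The confidence intervals rest on the spread between libraries. Overlaps with other genes and shared 130-base stretches were read from GENCODE vM21, and promoter windows from RefSeq (GRCm38.p6) with Python 3.11.15. Replicates were separate animals. Alternatives were pseudocounts, filters, scalings, other tests, a replicate block and each library left out. The values of some single genes and 1 sequence are not reported here.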

Additional observations from a re-analysis of the deposited data

How the results depend on the processing

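All 10 members kept their direction and stayed past the threshold in each of the 18 alternative settings, 6 of them with 1 library left out. Over these settings the adjusted p of the members was at most 0.0478 (*Gbp4*, limma without trend). With a library left out, the log2 fold change of *Gbp10* ranged from 6.09 to 9.52, of *Gbp4* from 3.97 to 6.84, of *Gbp6* from 4.56 to 7.18, of *Gbp2* from 4.07 to 6.07 and of *Gbp11* from 3.58 to 4.21. edgeR gave a smaller log2 fold change for all 10. The fold change before taking logs was smaller by over 1.5-fold in *Gbp10* (log2 value 5.02), *Gbp6* (4.48), *Gbp4* (3.82), *Gbp2* (3.96) and *Gbp5* (5.32). The counts of genes past the threshold in the members and in the 6 lists of genes that act with or are related to them were within 1.5 times their main values. The inflammasome and pyroptosis list ranged from 4 (pseudocount 10) to 7 (the same total). Marker lists with 2 or fewer calls moved by 1 gene: neutrophil from 1 to 2 (DESeq2, the same total, without control replicate 3 or mutant replicate 3), fibroblast and perineurial from 2 to 1 (the same total, without mutant replicate 3) and endothelial from 0 to 1 (without control replicate 1 or mutant replicate 1). T and NK cell calls ranged from 4 (filter at a mean of 50) to 7 (no filter), and skeletal muscle calls from 4 (limma without trend) to 6 (replicate block). Macrophage markers that fell went from 3 to 2 without mutant replicate 3. The rise of *Aif1* was not called with the same 75th percentile, without control replicate 3 or without mutant replicate 1. Rescaling to the same total moved the median of all genes from 0.03 to 0.20 and turned no member. Of the prenylation genes, *Pggt1b* was called as a rise also with TMM factors, the same total, and without control replicate 1 or mutant replicate 2, and the same total left 2 that fell. Replicate numbers stand for different animals, and same-numbered libraries did not deviate together (correlations -0.0619, -0.0555 and 0.00891). With a replicate block all 10 members rose, with *Gbp4* at a limma adjusted p of 0.0066. Depth limits the low control values of *Gbp2b* (at most 15 reads) and of *Gbp10* in control replicates 1 and 3 (9 and 2 reads).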

Other observations

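*Gbp2b* and the 10 members differed in their pattern over the mutant-labelled libraries. *Gbp2b* was 15.5 times higher in the highest than in the lowest of them, with the peak in mutant replicate 2 (509 reads, against 100 and 32). The members differed by at most 2.02-fold between these libraries, and 7 of them were lowest in mutant replicate 2. The summed adipocyte markers also peaked there, at 23201 normalised reads against 3177 and 4331. So did the sums of the endothelial markers (33578 against 21823 and 26560) and of the T and NK cell markers (810 against 756 and 510). The sums of the other marker lists did not peak there. The part of these cell types in the value of *Gbp2b* was not tested.

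The ISRE core was present in front of *Gbp2b* too, 137 bases before its RefSeq start, and in 6 of the 8 IRGs with a promoter window. Of the 15 genes with a window on the interferon signalling list, 3 held it (*Irf2*, *Socs1* and *Stat2*, named for this match). It was found in 0 of 8 inflammasome and pyroptosis genes, 0 of 7 Atg8 conjugation genes and 1 of 5 prenylation genes with a window. The GAS core, held by 8.30% of all windows, was found in 5 of the 8 IRGs and 6 of the 15 interferon signalling genes. It was also found in 0 of the 8 inflammasome and pyroptosis genes, 2 of the 7 Atg8 conjugation genes and 1 of the 5 prenylation genes.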
